A study of Chlamydomonas reinhardtii with 16 samples.

Results

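The comparison asked whether 30 min of light altered transcript levels by a different amount in wild-type Chlamydomonas reinhardtii supplied with biliverdin IXα (BV) than in wild type without it. It used the 8 wild-type libraries of a series of 16, and the 13422 of 17301 listed genes that reached 1 RPKM (the reads of a gene per unit of its length and per unit of library size) in at least 2 of those 8 libraries. Strain 4A+, a green alga able to live on acetate without light, was grown in darkness in acetate medium that held 0.5% methanol in all groups, with 0.1 mM BV or with none. Cells were lit with white light of 150 µmol photons m-2 s-1, and RNA was taken at the end of that time or just before it, which gives 4 groups of 2 libraries each, namely BV in the light, BV in the dark, no BV in the light and no BV in the dark. The heme oxygenase mutant hmox1 was treated in the same way and supplied 8 further libraries, none of which enters the wild-type contrast. Separate cultures for both libraries of a group are not stated in the labels, and the p-values therefore rest on a spread between libraries that may be technical.

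Heme oxygenase opens the ring of heme to make biliverdin, a linear tetrapyrrole or bilin. Plants, some algae and cyanobacteria use bilins as the light-absorbing groups of phytochromes or of phycobiliproteins, and Chlamydomonas itself lacks phytochromes. In Chlamydomonas, bilins made in the plastid have been described as signals to the nucleus during greening, and the series was made to study that signalling. A BV by light interaction describes whether BV and light act on a transcript in an additive way on the log scale. The sources used here pair no gene identifier with a gene name or a product, so genes are given by identifier and no role is given for any of them.

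The interaction was taken for each gene as the light minus dark difference with BV, minus the light minus dark difference without BV, on log2(RPKM + 1). A positive value means that the light difference was more positive with BV. Adding 1 RPKM makes a light difference that involves low levels look smaller than it was. The interaction of such genes can look smaller or larger than it was, since 2 light differences enter it. The difference was tested by limma with Benjamini-Hochberg adjustment over all 13422 genes, and a gene is said to be called where its adjusted p was under 0.05. A gene is said to differ 2-fold where its interaction was at least 1 log2 unit in size.

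The wild-type libraries held 10213543 to 33204949 reads in genes. The libraries of BV in the light stood apart from each other more than those of any other wild-type group did. Their median SD over genes was 0.122 log2 units, against 0.053 for BV in the dark, 0.075 for no BV in the light and 0.076 for no BV in the dark. Replicate 1 lay below replicate 2 of BV in the light by a median of 0.147 log2 units, and the RPKM values of these libraries summed to 968920 and 840589. With replicate 1 as the only library of that group the median interaction over all tested genes was 0.09, and with replicate 2 it was 0.23. For single genes the range of the interaction over the 16 ways of taking 1 library from each group was therefore computed as well.

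In wild type 3428 genes were called, 25.5% of those tested. The interaction was positive for 2361 of them (17.6% of the genes tested) and negative for 1067 (7.95%). It was 2-fold or more and positive for 382 genes (2.85%), and 2-fold or more and negative for 351 (2.62%). It reached 4-fold for 31 genes in the positive and 52 genes in the negative direction. Without adjustment, 5029 genes were at p under 0.05. The larger number of positive calls goes with the scaling of the libraries. On the authors' scaling by library total the median interaction over all tested genes was 0.16 log2 units, and 68.9% of the calls were positive. After TMM scaling, which sets the bulk of genes equal between libraries, the median was 0, and 1586 genes were called positive and 1962 negative (44.7% positive). After quantile scaling, 1601 were called positive and 1459 negative (52.3% positive). Of the 3428 genes called on the authors' scaling, 2629 kept call and sign after TMM scaling and 2501 after quantile scaling. With TMM scaling, 239 genes were 2-fold positive and 554 were 2-fold negative. The values below are on the authors' scaling, and a positive interaction near 0.16 is thus at the middle of all genes. The sign of the interaction was the same in all 16 combinations of single libraries for 6875 genes (51.2%). It was so for every called gene, and thus for all 382 and all 351 of the 2-fold genes. The combinations use the libraries of the call, so this agreement is no support beyond the call. Without replicate 1 of BV in the dark 2146 genes were called, 1368 of them positive, and without replicate 1 of BV in the light 3550 genes were called positive.

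**Figure D1:**
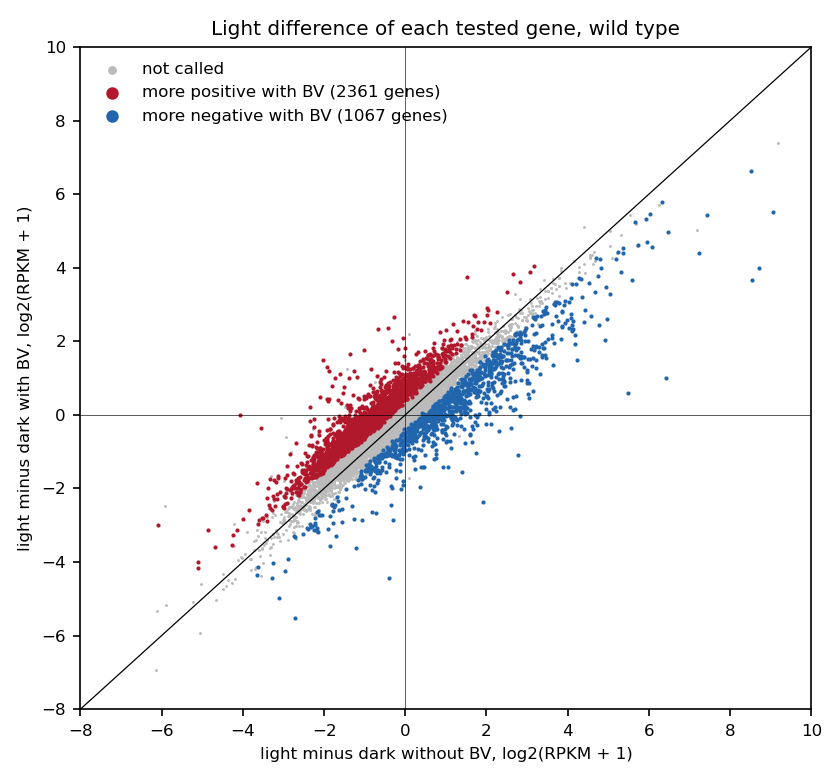
The light minus dark difference with BV (vertical axis) is plotted against the difference without BV (horizontal axis) for each of the 13422 tested genes of wild type, both on log2(RPKM + 1). Points above the diagonal have a positive interaction, and the 2361 positive and 1067 negative calls are coloured.

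Calls were more frequent among genes of higher level. By quartile of the mean RPKM over the 8 libraries, from low to high, the called share was 15.3%, 24.1%, 31.2% and 31.5%, and the median interaction was 0.14, 0.21, 0.19 and 0.10. Positive calls made up 61.3% of the calls in the highest quartile, against 75.6% in the second. The highest quartile began at 14.3 RPKM.

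The called genes were sorted into classes by the light difference of larger size, with or without BV, as a description with no test. A gene was set apart as having opposite signs where the light difference was at least 0.5 log2 units in one direction with BV and at least 0.5 in the other without it, so smaller changes of sign stay inside the other classes. The class in which the difference of larger size was negative and lay without BV held 1717 called genes (50.1% of the calls), with a median light difference of -0.45 with BV and -1.18 without it, and the sign changed in 347 of them. The class in which it was positive and lay without BV held 742 genes (21.6%), with medians of 0.63 with BV and 1.64 without it and a change of sign in 151. The class in which it was positive and lay with BV held 593 genes (17.3%), with medians of 0.84 with BV and 0.09 without it and a change of sign in 255. The class in which it was negative and lay with BV held 293 genes (8.55%), with medians of -1.10 with BV and -0.32 without it and a change of sign in 86. Opposite signs were found for 51 genes with a positive difference with BV (medians 0.65 with BV and -0.72 without it) and for 32 genes with a negative one (medians -0.74 with BV and 0.95 without it).

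Which class was the largest depended on the scaling. Over all tested genes the median light difference was -0.38 with BV and -0.59 without it on the authors' scaling, and 0 with BV and -0.04 without it after TMM scaling. With calls and classes both taken after TMM scaling, a comparison added after the data had been seen, the class that was positive and larger without BV held 1597 genes (45.0% of the calls) and the class that was negative and larger without BV held 912 (25.7%). The classes with the larger difference with BV held 640 positive and 337 negative genes, and opposite signs were found for 34 and 28. All 742 genes of the positive class that was larger without BV stayed called in that class after TMM scaling. The count was 895 of 1717 for the negative class that was larger without BV, 348 of 593 for the positive class that was larger with BV, and 181 of 293 for the negative class that was larger with BV. Of the genes with opposite signs, 14 of 51 and 9 of 32 did so. These counts also lose genes that stayed called but moved to another class. By call and sign alone, 1169 of the 1717 and 287 of the 293 genes with a negative difference were kept after TMM scaling. So were 348 of the 593 genes, all 51 and all 32.

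**Figure D2:**
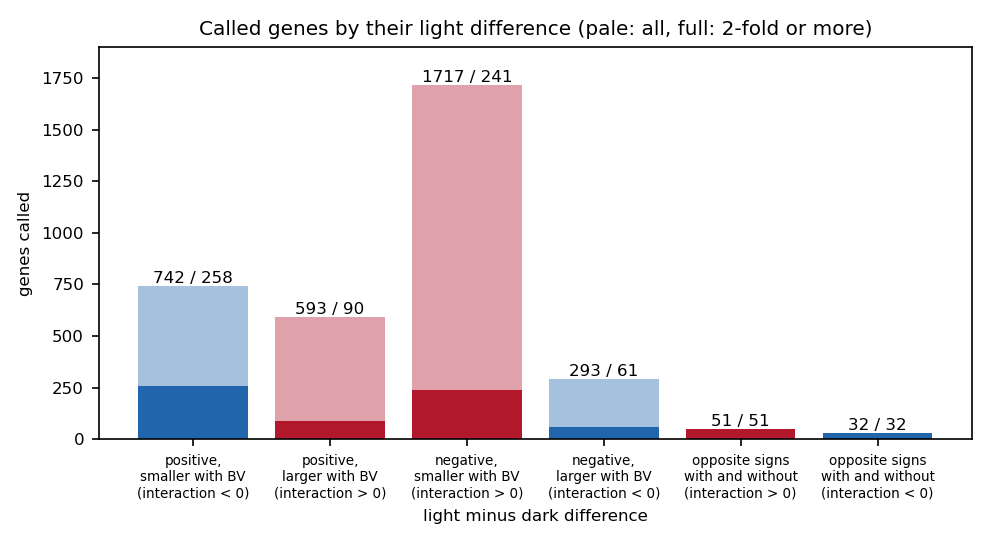
Bars give the number of called genes in each class of the light minus dark difference in wild type on the authors' scaling, named by the sign of the difference of larger size and by whether it was smaller or larger in size with BV, pale for all called genes and full for those that differ 2-fold or more. The tallest pale bar holds 1717 genes and the tallest full bar 258, and after TMM scaling the first of the 6 classes, with 1597 genes, was the largest.

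Among the 2-fold genes, on the authors' scaling, the negative list came mostly from 1 class. The class with a positive difference that was larger without BV held 258 of the 351 negative genes, and its 742 called members had a median level of 12.7 RPKM with BV in the light and 6.17 with BV in the dark, against 27.1 without BV in the light and 5.68 without BV in the dark. The light group without BV was the highest of the 4 groups for 301 of the 351 negative genes, while over all tested genes it was the highest for 17.7%. BV in the dark was the highest for 48 negative genes, and BV in the light for 2. Of the 382 positive genes, 184 were highest with BV in the light, 131 without BV in the dark and 67 with BV in the dark, and 0 were highest without BV in the light. Over all tested genes, BV in the light was the highest group for 15.7%, BV in the dark for 31.9% and no BV in the dark for 34.7%. The choice of genes by a positive or negative interaction favours these groups, so the counts describe the lists and no test was made. The difference between BV and no BV was larger in size in the light than in the dark for 376 of the 382 positive genes and for 302 of the 351 negative genes. The share over all tested genes was not computed for this, and BV in the light had the widest spread. These counts therefore do not show a trait particular to the lists. Median interactions were 1.17 for the positive and -1.41 for the negative list, and they were 1.17 and 1.21 for the positive list, and -1.52 and -1.31 for the negative list, with replicate 1 or replicate 2 as the only library of BV in the light.

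The 12 largest genes of each direction, and the 6 with the smallest SE among 2-fold genes, are described one by one. They were taken from 1344 positive and 668 negative called genes with at least 5 RPKM in their highest group, at least 20 reads in each of its libraries, the same sign in all 16 combinations and a match in the RefSeq gene table. Signs of light differences of single genes are on the authors' scaling and were not taken after TMM scaling. The median light difference over all tested genes was -0.38 with BV and -0.59 without it, so a sign of a value near these depends on the scaling. Of the 18 negative genes so chosen, 12 had a positive light difference both with and without BV, 2 had a negative one in both treatments, and 4 had one sign with BV and the other without it. The range over the 16 combinations spanned 0.28 to 2.27 log2 units for the negative and 0.21 to 2.03 for the positive genes. It was wider than 1 log2 unit for 3 negative genes, Cre01.g016600, Cre01.g016750 and Cre07.g320400, and for 3 positive ones, Cre10.g443050, Cre02.g118550 and Cre08.g372200.

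The most negative interaction belonged to Cre08.g367400. Its level was 1.22 and 1.85 RPKM with BV in the light and 0.275 and 0.239 RPKM with BV in the dark, against 122 and 121 RPKM without BV in the light and 0.368 and 0.481 RPKM without BV in the dark. Both libraries without BV in the light stood above all others, and the light libraries with BV lay above the dark ones. The light difference was 1.00 log2 units with BV and 6.43 without it, and the interaction was -5.42 ± 0.19 (SE; limma adjusted p = 9.5e-09), with a range of -5.69 to -5.16 over the 16 combinations. The next locus in the RefSeq order, Cre08.g367500, followed it. It had 0.563 and 0.873 RPKM with BV in the light and 0.134 and 0.140 with BV in the dark, against 49.8 and 54.6 without BV in the light and 0.269 and 0.094 without BV in the dark. Its interaction was -4.91 ± 0.19 (SE; limma adjusted p = 9.5e-09). The dark levels of both genes rest on 1 to 5 reads per library. Whether such neighbouring loci share reads cannot be told from the deposited values.

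A second pair of nearby loci showed the same form at a higher level. Cre01.g016600 had 21.7 and 15.4 RPKM with BV in the light and 1.11 and 0.110 with BV in the dark, against 1000.2 and 849 without BV in the light and 2.12 and 0.997 without BV in the dark. Cre01.g016750 had 20.8 and 15.7 RPKM with BV in the light and 0.361 and 0.0718 with BV in the dark, against 711 and 590.1 without BV in the light and 0.759 and 0.361 without BV in the dark. In both genes the light libraries with BV lay far above all dark libraries and far below the light libraries without BV. The light difference of Cre01.g016600 was 3.66 log2 units with BV and 8.53 without it, and that of Cre01.g016750 was 3.98 and 8.71. The interactions were -4.87 ± 0.56 for Cre01.g016600 (SE; limma adjusted p = 0.0036) and -4.73 ± 0.25 for Cre01.g016750 (SE; limma adjusted p = 6.2e-07), with ranges of -6.01 to -3.74 and -5.41 to -4.04 over the combinations. Dark levels of a few reads enter both values. With 0.1 RPKM in place of 1 RPKM added, the interactions were smaller in size, at -4.02 for Cre01.g016600 and -3.99 for Cre01.g016750. Cre01.g016600 was then no longer called (limma adjusted p = 0.11).

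**Figure D3:**
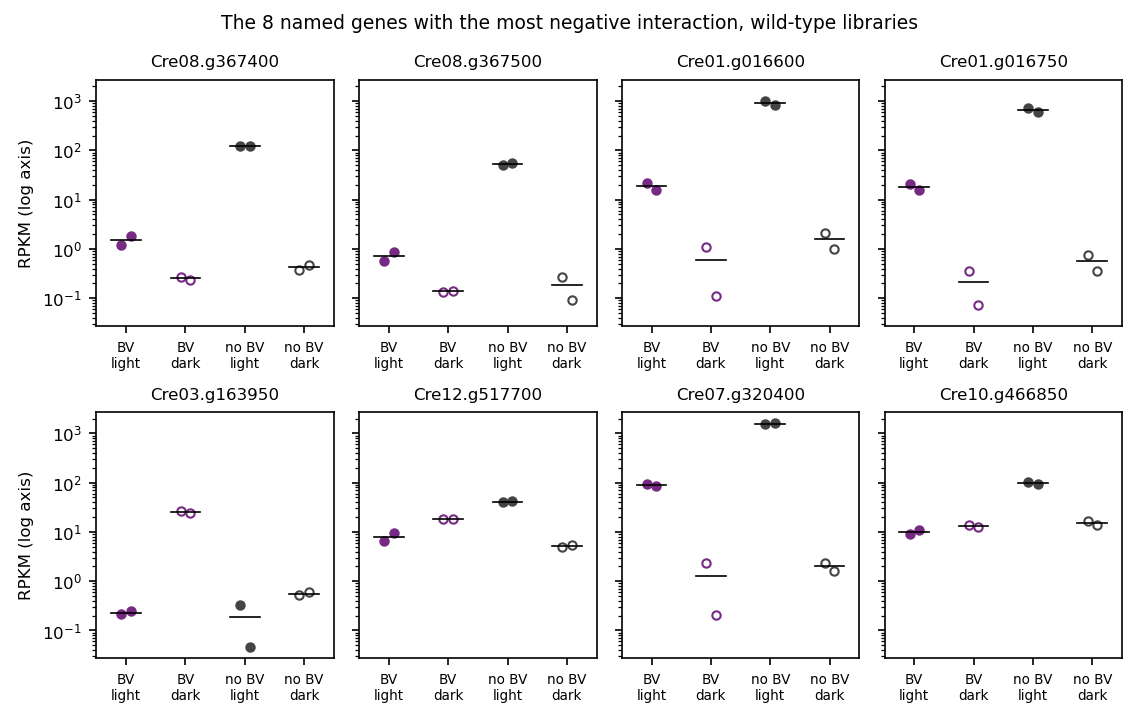
RPKM of each wild-type library (points, log axis) and the mean of the 2 libraries (lines) are shown for the 8 genes with the most negative interaction, in the order BV light, BV dark, no BV light and no BV dark. In 7 of the 8 panels the no BV light libraries are the highest, and Cre03.g163950 is highest with BV in the dark.

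Cre03.g163950 and Cre13.g603550 differed from the other negative genes in their form, being highest with BV in the dark. Cre03.g163950 had 0.213 and 0.245 RPKM with BV in the light and 26.4 and 24.6 with BV in the dark, against 0.332 and 0.0459 without BV in the light and 0.515 and 0.596 without BV in the dark. Its interaction was -4.03 ± 0.18 (SE; limma adjusted p = 5.5e-08), and 3 of its groups lay below 1 RPKM. Cre13.g603550 had 0.169 and 0.375 RPKM with BV in the light and 61.9 and 52.7 with BV in the dark, against 0.447 and 0.228 without BV in the light and 8.23 and 7.23 without BV in the dark. Its light libraries were near 0 in both treatments, while its dark libraries differed between treatments, and the interaction was -2.81 ± 0.20 (SE; limma adjusted p = 1.4e-06).

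Cre12.g517700 turned round between treatments. It had 6.65 and 9.42 RPKM with BV in the light and 18.0 and 18.2 with BV in the dark, against 41.0 and 41.8 without BV in the light and 4.93 and 5.47 without BV in the dark. The light difference was -1.10 log2 units with BV and 2.78 without it, with no overlap between light and dark libraries in either treatment. The interaction was -3.87 ± 0.19 (SE; limma adjusted p = 8e-08) and ranged from -4.18 to -3.57 over the combinations. On the authors' scaling Cre05.g243800, one of the genes with the smallest SE, also had opposite signs, at a smaller size. Its light difference was -0.60 log2 units with BV and 0.51 without it. The median with BV over all tested genes was -0.38, so the size of the fall in Cre05.g243800 depends on the scaling. Its levels were 121 and 139 RPKM with BV in the light and 196 and 197 with BV in the dark, against 298 and 307 without BV in the light and 215 and 210.0 without BV in the dark, and its interaction was -1.11 ± 0.11 (SE; limma adjusted p = 2.8e-05).

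In 4 further negative genes the light difference without BV was much reduced with BV. Cre10.g466850 had 9.25 and 11 RPKM with BV in the light and 13.8 and 12.7 with BV in the dark, against 103 and 94.1 without BV in the light and 16.9 and 14.1 without BV in the dark. Cre06.g280150 had 2.30 and 2.04 RPKM with BV in the light and 2.51 and 2.00 with BV in the dark, against 18.3 and 17.0 without BV in the light and 1.81 and 1.45 without BV in the dark. With BV, the light libraries of these genes lay within or below the range of the dark ones, and the interactions were -2.95 ± 0.17 and -2.86 ± 0.18 (SE; limma adjusted p = 2.6e-07 and 6.7e-07). Cre03.g197750 had 10.3 and 10.6 RPKM with BV in the light and 1.61 and 2.00 with BV in the dark, against 102 and 96.8 without BV in the light and 1.69 and 3.06 without BV in the dark. Cre12.g492650 had 22.7 and 26.4 RPKM with BV in the light and 0.355 and 0.0967 with BV in the dark, against 196 and 225 without BV in the light and 0.475 and 0.324 without BV in the dark. In these genes a light difference remained with BV, of 2.03 and 4.39 log2 units, and the interactions were -2.89 ± 0.23 and -2.85 ± 0.19 (SE; limma adjusted p = 7.7e-06 and 1e-06). With 0.1 RPKM in place of 1 RPKM added, the interaction of Cre12.g492650 was smaller in size, at -2.37.

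The gene of highest level in the negative set, Cre07.g320400, had a recovered length of only 148 nt. It had 96.0 and 84.0 RPKM with BV in the light and 2.34 and 0.203 with BV in the dark, against 1559.7 and 1590.4 without BV in the light and 2.35 and 1.64 without BV in the dark. Its dark values rest on 1 to 8 reads. The interaction was -3.55 ± 0.73 (SE; limma adjusted p = 0.03), with a range of -4.57 to -2.53. With 0.1 RPKM in place of 1 RPKM added it was smaller in size, at -2.87. The call was lost with 0.1 RPKM added, with library weights, and without any 1 of the libraries of no BV in the dark, no BV in the light or BV in the light, with adjusted p up to 0.25.

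The negative genes with the smallest SE lay at high levels in all 8 libraries and, leaving out Cre05.g243800, had a light difference that was positive in both treatments. Cre09.g411200 had 253 and 279.7 RPKM with BV in the light and 36.3 and 36.4 with BV in the dark, against 860.2 and 840.0 without BV in the light and 40.3 and 37.1 without BV in the dark. Its light difference was 2.84 log2 units with BV and 4.42 without it, and the interaction was -1.59 ± 0.12 (SE; limma adjusted p = 1.9e-06). Cre13.g562850 had 255 and 288 RPKM with BV in the light and 103 and 106 with BV in the dark, against 756 and 776 without BV in the light and 123 and 121 without BV in the dark. The interaction of Cre13.g562850 was -1.27 ± 0.11, that of Cre07.g315150 was -1.31 ± 0.12, that of Cre06.g251150 was -1.06 ± 0.11 and that of Cre03.g179800 was -1.01 ± 0.11 (SE; limma adjusted p between 8.3e-06 and 3.9e-05). For these 5 genes the light libraries with BV lay between the dark libraries and the light libraries without BV.

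On the authors' scaling, 15 of the 18 positive genes described here had a light difference above 0 with BV and below 0 without it. In Cre10.g443050 the one with BV was 0.00 after rounding, and the count was not taken after TMM scaling. The other 3, Cre03.g192050, Cre02.g118550 and Cre12.g498850, had a negative difference in both treatments. The most positive interaction belonged to Cre10.g443050. It had 129 and 116 RPKM with BV in the light and 144 and 104 with BV in the dark, against 5.63 and 4.50 without BV in the light and 121 and 83.9 without BV in the dark. The libraries without BV in the light lay below all others, and the light and dark libraries with BV overlapped. The light difference was 0.00 log2 units with BV and -4.07 without it, and the interaction was 4.08 ± 0.30 (SE; limma adjusted p = 8.6e-05), with a range of 3.37 to 4.78 over the combinations.

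Cre03.g192050 was likewise far lower without BV in the light than in the other groups, but its light and dark libraries with BV did not overlap. Its levels were 29.7 and 36.1 RPKM with BV in the light and 40.6 and 44.0 with BV in the dark, against 2.85 and 2.51 without BV in the light and 41.2 and 43.6 without BV in the dark. The interaction was 3.20 ± 0.16 (SE; limma adjusted p = 9.1e-08). Cre02.g118550 differed in that both light groups lay far below the dark ones. It had 13.4 and 27.4 RPKM with BV in the light and 160.0 and 159 with BV in the dark, against 2.42 and 0.739 without BV in the light and 170.1 and 161 without BV in the dark. Its interaction was 3.11 ± 0.65 (SE; limma adjusted p = 0.03), with a range of 2.09 to 4.12. The call was lost without any 1 of the 4 dark libraries, with adjusted p up to 0.13.

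The second largest positive value belonged to a gene with opposite signs of at least 0.5 log2 units. Cre07.g346950 had 55.6 and 54.6 RPKM with BV in the light and 19.4 and 18.9 with BV in the dark, against 0.703 and 0.701 without BV in the light and 5.64 and 6.36 without BV in the dark. The 4 groups of this gene did not overlap, and its light difference was 1.48 log2 units with BV and -2.04 without it. The interaction was 3.52 ± 0.15 (SE; limma adjusted p = 2.3e-08). The locus Cre07.g346900, which has a nearby number, had 26.5 and 25.9 RPKM with BV in the light and 4.24 and 4.35 with BV in the dark, against 0.335 and 0.236 without BV in the light and 0.651 and 0.779 without BV in the dark. Its interaction was 2.78 ± 0.16 (SE; limma adjusted p = 4.1e-07), and its values without BV rest on 3 to 16 reads.

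**Figure D4:**
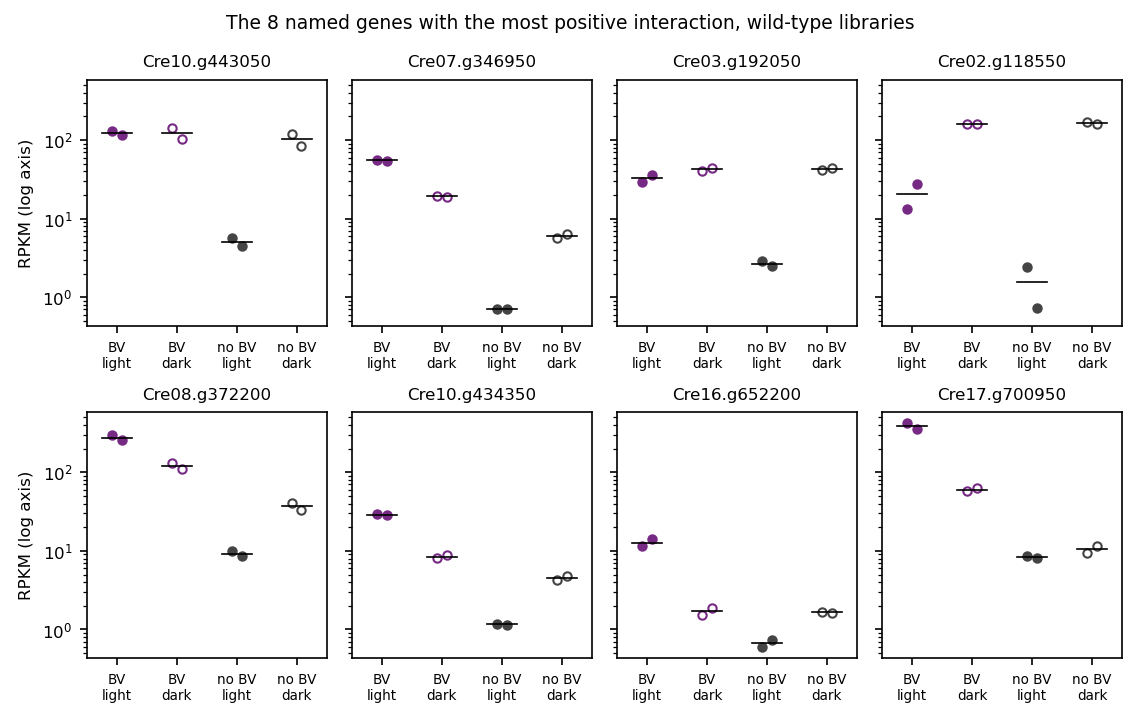
RPKM of each wild-type library (points, log axis) and the mean of the 2 libraries (lines) are shown for the 8 genes with the most positive interaction, in the order BV light, BV dark, no BV light and no BV dark. In all 8 panels the no BV light libraries are the lowest.

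Cre08.g372200 had 299 and 255 RPKM with BV in the light and 133 and 109 with BV in the dark, against 10 and 8.50 without BV in the light and 41.0 and 33.1 without BV in the dark. Cre10.g434350 had 29.5 and 28.4 RPKM with BV in the light and 8.17 and 8.80 with BV in the dark, against 1.18 and 1.15 without BV in the light and 4.31 and 4.75 without BV in the dark. Both genes were highest with BV in the light and lowest without BV in the light, with no overlap between groups. The interactions were 3.08 ± 0.19 and 3.01 ± 0.15 (SE; limma adjusted p = 1.2e-06 and 1.1e-07), with ranges of 2.56 to 3.59 and 2.87 to 3.15. Cre16.g652200 had 11.5 and 14.0 RPKM with BV in the light and 1.55 and 1.85 with BV in the dark, against 0.596 and 0.741 without BV in the light and 1.67 and 1.62 without BV in the dark. Its dark libraries did not separate by treatment, and its interaction was 3.01 ± 0.18 (SE; limma adjusted p = 4.8e-07).

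Of the 12 largest positive genes, Cre17.g700950 reached the highest level with BV in the light. It had 419 and 357 RPKM with BV in the light and 57.2 and 62.7 with BV in the dark, against 8.72 and 8.13 without BV in the light and 9.42 and 11.7 without BV in the dark. Its light difference was 2.67 log2 units with BV and -0.29 without it, and the interaction was 2.96 ± 0.16 (SE; limma adjusted p = 2.6e-07). The interactions of Cre12.g507800, Cre01.g029700 and Cre01.g000150 were 2.72 ± 0.13, 2.58 ± 0.15 and 2.45 ± 0.18 (SE; limma adjusted p = 8e-08, 4.1e-07 and 1.6e-06). In each of these 3 genes the light difference was positive with BV, at 1.11, 0.77 and 1.18 log2 units, and negative without it, at -1.61, -1.81 and -1.27.

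The positive genes with the smallest SE also had high levels. Cre12.g490500 had 228 and 235 RPKM with BV in the light and 168 and 173 with BV in the dark, against 49.0 and 46.0 without BV in the light and 182 and 171 without BV in the dark. Cre07.g346050 had 372 and 419 RPKM with BV in the light and 297 and 298 with BV in the dark, against 84.3 and 78.2 without BV in the light and 265 and 256 without BV in the dark. Both had libraries without BV in the light far below the rest, and their interactions were 2.32 ± 0.11 and 2.08 ± 0.12 (SE; limma adjusted p = 8e-08 and 2.6e-07). Cre10.g441400 had 236 and 221 RPKM with BV in the light and 144 and 147 with BV in the dark, against 117 and 106 without BV in the light and 161 and 166 without BV in the dark. The interactions of Cre10.g441400, Cre01.g010400, Cre02.g085450 and Cre12.g498850 were 1.21 ± 0.11, 1.25 ± 0.11, 1.51 ± 0.12 and 1.32 ± 0.12 (SE; limma adjusted p between 2.9e-06 and 1.3e-05). After TMM scaling the 18 positive genes lay between 0.97 and 3.91 and the 18 negative genes between -5.78 and -1.25, and all 36 were called with the sign they have on the authors' scaling.

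Neighbouring loci were compared because the RefSeq table gives an order for 10319 of the tested genes. Around the 2-fold positive genes, 28.6% of the tested neighbours were called positive and 7.10% were 2-fold positive, against 18.4% and 2.98% of all placed genes. Around the 2-fold negative genes, 17.4% of the tested neighbours were called negative and 9.21% were 2-fold negative, against 8.13% and 2.66% of all placed genes. Adjacent loci that were both 2-fold formed 16 pairs of positive genes, 18 pairs of negative genes and 12 pairs of opposite sign. These shares are a description with no test, and reads shared by overlapping genes were not tested as a source of them.

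The longest run of 2-fold negative genes held the 4 loci Cre07.g320400, Cre07.g320450, Cre07.g320500 and Cre07.g320550, with interactions of -3.55, -1.88, -1.43 and -1.38. Cre07.g320450, with a recovered length of 146 nt, had 501 and 482 RPKM with BV in the light and 5.04 and 3.09 with BV in the dark, against 2900.3 and 2984 without BV in the light and 9.12 and 5.4 without BV in the dark. On the other side of Cre07.g320400, Cre07.g320350 had an interaction of 1.57 ± 0.19 (SE; limma adjusted p = 8.4e-05). The pair Cre10.g443050 and Cre10.g443100 also had opposite signs, with an interaction of -1.72 ± 0.21 for Cre10.g443100 (SE; limma adjusted p = 0.00011).

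Of all tested genes 25.5% were called, and of all placed genes 18.4% were called positive and 8.13% negative. Beside these shares, and with no test, the 36 genes described above had 57 tested neighbour positions. Calls were made at 24 of the positions, 13 in the same and 11 in the opposite direction. Of these, 2 are Cre08.g367400 and Cre08.g367500 as neighbours of each other, and the other 22 genes are given here. Beside positive genes, interactions of the same sign were found for Cre10.g441450 (1.35), Cre12.g507750 (0.84), Cre01.g029750 (0.74), Cre01.g010450 (0.70) and Cre10.g441350 (0.69), and of the opposite sign for Cre01.g000200 (-1.08), Cre02.g085500 (-0.98) and Cre08.g372250 (-0.56), together with Cre10.g443100. Beside negative genes, the same sign was found for Cre12.g492600 (-1.79), Cre12.g517681 (-0.97), Cre01.g016700 (-0.91), Cre03.g179750 (-0.75) and Cre06.g280100 (-0.66), together with Cre07.g320450. The opposite sign was found there for Cre03.g163900 (1.30), Cre08.g367350 (1.10), Cre13.g603500 (1.10), Cre05.g243850 (0.70), Cre09.g411150 (0.65) and Cre10.g466900 (0.39), together with Cre07.g320350. These calls are on the authors' scaling. After TMM scaling Cre10.g466900 (0.16), Cre01.g010450 (0.47) and Cre02.g085500 (-0.72) were no longer called (limma adjusted p = 0.36, 0.062 and 0.14). Cre02.g085500 had 0 or 1 reads in each wild-type library without BV. Cre08.g367350 stood at 13.3 RPKM with BV in the light and 4.13 with BV in the dark, against 7.27 without BV in the light and 5.37 without BV in the dark, on average over 2 libraries. Its neighbour Cre08.g367400 thus had the opposite order of the light groups.

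The mutant gave the same measure in libraries that the wild-type contrast did not use. No identifier could be tied to the mutated gene, so the mutant was not checked by that transcript. In hmox1 the interaction was called for 3889 of the same 13422 genes (29.0%). It was positive for 2747 (20.5%) and negative for 1142 (8.51%), with a median of 0.15 log2 units. The larger number of positive calls depended on the scaling here too. After TMM scaling, 1180 genes were called positive and 2349 negative in hmox1 (33.4% positive), with a median of -0.03. Without replicate 1 of hmox1 without BV in the light 2474 genes were called. The lists shared 1235 positive genes, 52.3% of the wild-type and 45.0% of the hmox1 list, and 648 negative genes, 60.7% of the wild-type and 56.7% of the hmox1 list. Opposite calls were made for 30 genes that were positive in wild type and negative in hmox1, and for 18 that were negative in wild type and positive in hmox1. With TMM scaling the shared positive genes numbered 578 (36.4% of the wild-type and 49.0% of the hmox1 list), the shared negative genes 1330 (67.8% and 56.6%), and the opposite calls 43 and 19. Across the 13422 genes, which are no independent replicates and share the annotation and the scaling, the interactions of the strains correlated with r = 0.66.

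Of the 382 genes that were 2-fold positive in wild type, 277 were called positive and 13 called negative in hmox1, with a median of 1.17 in wild type and 0.64 in hmox1. Of the 351 that were 2-fold negative in wild type, 283 were called negative and 2 called positive in hmox1, with a median of -1.41 in wild type and -0.99 in hmox1. The lists were chosen on the wild-type values, which favours a larger size there. Over all tested genes, 20.5% were called positive and 8.51% negative in hmox1. Counts by class are given beside these shares as a description. Of the 742 genes whose light difference of larger size was positive and lay without BV, 553 were called with the same sign in hmox1, and so were 1015 of the 1717 for which it was negative and lay without BV. Where it lay with BV, the counts were 180 of the 593 positive and 67 of the 293 negative genes. These classes are on the authors' scaling.

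The difference of the interactions between the strains was tested over all 16 libraries. It was called for 548 genes (4.08%), more positive in wild type for 340 and more negative in wild type for 208. The count was 314 without replicate 1 of wild type with BV in the dark, 940 without replicate 2 of wild type with BV in the light and 328 without replicate 1 of hmox1 without BV in the light. The interaction was larger in size in wild type for 374 of the 548 genes and in hmox1 for 174. In the separate tests of the strains, 248 of these genes were called in wild type only, 126 in hmox1 only, 124 in both with the same sign, 48 in both with opposite signs and 2 in neither. Among the 2-fold genes of wild type, 133 positive genes differed between strains, 132 of them with a more positive interaction in wild type. Of the negative genes 83 differed, 73 of them with a more negative interaction in wild type. Among the 435 genes that were 2-fold in hmox1, 106 differed, 25 with the larger size in wild type and 81 with the larger size in hmox1. The counts for the wild-type lists go by direction and those for the hmox1 list by size. By these unlike measures, each list leaned to the strain on which it was chosen.

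Of the 36 genes described above, 33 were called in hmox1 with the sign they had in wild type. The difference between strains was called for 18 of the 36, of which 11 were positive and 7 negative. Over all tested genes, 20.5% were called positive and 8.51% negative in hmox1, and the strain difference was called for 4.08%. The 36 genes were chosen on the wild-type values, and no test was made on these counts. Cre16.g652200 had an interaction of 3.01 ± 0.18 in wild type and 0.30 ± 0.12 in hmox1, and the difference of 2.72 ± 0.21 was called (SE; limma adjusted p = 1.3e-06). In hmox1 it had 3.35 and 3.28 RPKM with BV in the light and 3.71 and 3.61 with BV in the dark, against 2.87 and 2.74 without BV in the light and 4.08 and 3.99 without BV in the dark. No hmox1 group of this gene thus reached the wild-type level with BV in the light.

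**Figure D5:**
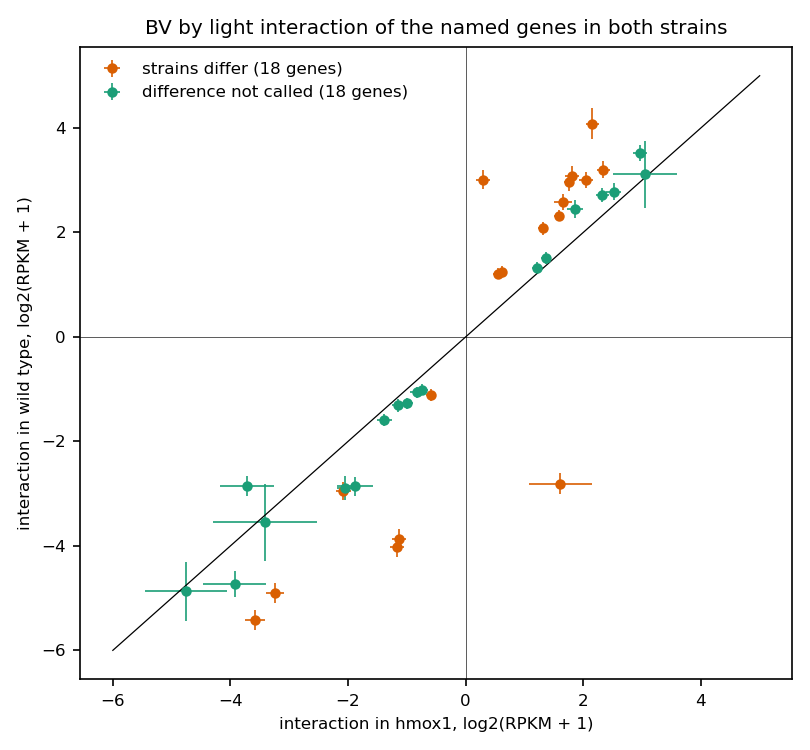
The interaction in wild type (vertical axis) is plotted against that in hmox1 (horizontal axis) for the 36 genes described one by one, on log2(RPKM + 1) with SE bars. The line marks equal values, and the 18 genes whose strains differ are set apart by colour, with Cre13.g603550 alone at the lower right.

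Cre13.g603550 had the opposite sign in hmox1, at 1.61 ± 0.54 (SE; limma adjusted p = 0.097), and the difference between strains was -4.42 ± 0.55 (SE; limma adjusted p = 0.0015). In hmox1 it had 4.54 and 8.40 RPKM with BV in the light and 93.3 and 96.4 with BV in the dark, against 0.762 and 2.10 without BV in the light and 97.4 and 90.1 without BV in the dark. The dark levels of hmox1 overlapped between treatments, while those of wild type were well apart. Cre03.g163950 had an interaction of -4.03 ± 0.18 in wild type and -1.16 ± 0.12 in hmox1, with a difference of -2.87 ± 0.21 (SE; limma adjusted p = 6.5e-07). With BV in the dark it stood at 26.4 and 24.6 RPKM in wild type and at 2.67 and 2.46 RPKM in hmox1.

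Cre12.g517700 had an interaction of -3.87 ± 0.19 in wild type and -1.13 ± 0.12 in hmox1, with a difference of -2.75 ± 0.23 (SE; limma adjusted p = 2.4e-06). With BV in the dark it had 18.0 and 18.2 RPKM in wild type and 4.85 and 4.77 in hmox1. Cre10.g443050 had 4.08 ± 0.30 in wild type and 2.15 ± 0.11 in hmox1, with a difference of 1.92 ± 0.36 (SE; limma adjusted p = 0.013). Without BV in the light it had 5.63 and 4.50 RPKM in wild type and 46.7 and 51.6 in hmox1. Cre08.g367400 and Cre08.g367500 had -5.42 and -4.91 in wild type and -3.58 and -3.24 in hmox1, and the strains differed by -1.85 ± 0.26 and -1.67 ± 0.24 (SE; limma adjusted p = 0.00042 and 0.00046). Without BV in the light, Cre08.g367400 had 122 and 121 RPKM in wild type and 39.8 and 40.3 in hmox1, and Cre08.g367500 had 49.8 and 54.6 in wild type and 13.5 and 14.7 in hmox1.

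The remaining called differences between strains are given further below. For 18 of the 36 genes the difference was not called, which does not show that the strains acted alike. For Cre07.g346950 the interaction was 3.52 in wild type and 2.97 in hmox1, with a difference of 0.54 ± 0.18 (SE; limma adjusted p = 0.1). For Cre12.g492650 it was -2.85 in wild type and -3.72 in hmox1, with a difference of 0.87 ± 0.48 (SE; limma adjusted p = 0.42), and for Cre01.g016600 it was -4.87 in wild type and -4.75 in hmox1, with a difference of -0.12 ± 0.93 (SE; limma adjusted p = 0.97). The SE of Cre01.g016600 was wide, its dark values resting on 2 to 20 reads in wild type. For Cre09.g411200 it was -1.59 in wild type and -1.38 in hmox1, with a difference of -0.20 ± 0.17 (SE; limma adjusted p = 0.63).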

How the data were processed

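Single-end reads of 100 nt from Chlamydomonas cultures were mapped with Bowtie, per the submitters' processing notes. The Bowtie version, genome build, annotation, counter and strand use were not given in the sources used here. The deposited table holds RPKM values of the authors for 17301 genes, and the unit was read from the values, since no header names it. RPKM keeps the authors' scaling by library total. Whole reads were recovered from the RPKM steps for 16852 of the 16852 genes above 0, within 0.1 reads, with 99.87% of values within 0.01 reads. They gave depths of 10213543 to 33204949 reads in the wild-type libraries, cover counting error only, and served for read minimums and as an alternative through voom.

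Libraries were grouped by their labels. limma 3.58.1 in R 4.3.3 was fitted on log2(RPKM + 1) with 1 mean for each of 4 groups (4 residual degrees of freedom), mean trend and robust moderation, and Benjamini-Hochberg adjustment over the 13422 genes at 1 RPKM in at least 2 of the 8 wild-type libraries. The same genes were tested in hmox1, and the strain difference over 16 libraries (8 residual degrees of freedom). The test was checked on simulated data with the same dispersion in all groups, so the check does not cover the wider spread of BV in the light. TMM trimmed 30% of ratios and 5% of levels.

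Named genes were called and had 5 RPKM or more in the highest group, 20 reads in each of its libraries, 1 sign in all 16 combinations and a RefSeq match. From these, 12 per direction were taken by size and 6 by the smallest SE at 1 log2 unit or more, with their called neighbours. Genes, classes and alternatives were chosen with earlier results of these data known. The locus tags of the RefSeq table (Chlamydomonas_reinhardtii_v5.5) matched 12666 identifiers (73.2%) and carry 0 other symbols, so gene lists by product, protein families and promoter motifs were not run.

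Replicate numbers were checked as a possible pairing. Deviations of same-numbered libraries correlated at 0.04 to 0.22 over the pairs of wild-type groups. These values are low but all positive, and they do not settle whether same-numbered libraries share an effect. The labels do not say what a number marks, so it entered as a block in an alternative only.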

Additional observations from a re-analysis of the deposited data

Results flagged for a closer look

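The results here differ between the strains by the test of the difference itself, limma over all 16 libraries with adjusted p under 0.05. They are given as the wild-type interaction minus the hmox1 interaction in log2 units, and no cause was tested. The difference was called for 548 of the 13422 genes. Among the positive genes described above it was 1.92 for Cre10.g443050, 0.86 for Cre03.g192050, 1.26 for Cre08.g372200, 0.98 for Cre10.g434350, 2.72 for Cre16.g652200, 1.20 for Cre17.g700950 and 0.92 for Cre01.g029700. Among those with the smallest SE it was 0.63 for Cre01.g010400, 0.72 for Cre12.g490500, 0.66 for Cre10.g441400 and 0.77 for Cre07.g346050. In all 11 the interaction was more positive in wild type. Among the negative genes it was -1.85 for Cre08.g367400, -1.67 for Cre08.g367500, -2.87 for Cre03.g163950, -2.75 for Cre12.g517700, -0.87 for Cre10.g466850, -4.42 for Cre13.g603550 and -0.51 for Cre05.g243800, more negative in wild type in all 7.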

How the results depend on the processing

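The count of wild-type calls, 3428, was 3620 and 3246 with 0.1 and 5 RPKM added, 3224 with no filter, 2602 of 7931 genes with a filter at 5 RPKM, 3372 with no mean trend, 3328 with library weights, 3948 with voom on recovered reads and 4423 over all 16 libraries. With TMM scaling 1962 genes were called negative, against 1067. The hmox1 count of 3889 was 2591 with quantile scaling; the cause was not tested. With a replicate block the counts were 4004 for wild type (2784 positive, 1220 negative), 4189 for hmox1 and 692 for the strain difference, and every one of the 36 genes stayed called except Cre02.g118550; the block rests on a shared number only. Leaving out 1 library gave 2146 to 4564 calls in wild type (1368 to 3550 positive, 778 to 1495 negative), 2474 to 3254 in hmox1 and 314 to 940 for the strain difference. The lone library left in a group was assumed to vary like the other groups. Of 684 results of the 36 genes under alternatives, 670 kept call and sign, 14 lost the call and 0 changed sign, and 33 genes kept it under every alternative run. Precision is limited by 2 libraries per group, by the wider spread of BV in the light, and by few reads in the dark for some genes.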

Other observations

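The interactions of 7 called identifiers with no match in the RefSeq table were larger in size than the smallest of the 12 taken by size in the same direction (2.45 and -2.81). None exceeded the largest ones, and they were chosen after their values were seen. Negative values were found for Cre05.g231450 (-4.28, at 11.6 RPKM in its highest group) and Cre01.g063750 (-2.96, at 64.9 RPKM). Positive values were found for Cre18.g748800 (3.23), Cre18.g748500 (2.78), Cre12.g510058 (2.73), Cre18.g748750 (2.61) and Cre15.g644600 (2.56), at 4.45 to 11.2 RPKM in the highest group, the lowest level being that of Cre15.g644600. All 7 had the same sign in the 16 combinations of single libraries, as every called gene did. Of them, 3 carry neighbouring numbers, Cre18.g748500, Cre18.g748750 and Cre18.g748800, and their recovered lengths were 842, 971 and 963 nt.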
